A study of Mus musculus with 12 samples.

Results

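The genes that carry glucose into a cell, break it down to pyruvate and lactate, or divert it into the pentose phosphate pathway were examined in poly(A) RNA of regulatory T cells (Treg). A list of 34 such genes was used, and its members were taken as the rows of the gene tables that bear their names, 34 of 41457 genes listed. Of these, 33 matched by symbol. Aldoa is listed under 2 names, and the row with the Ensembl identifier ENSMUSG00000030695 was used, since the other carried at most 4 reads in any library. All 34 passed the filter on low counts in every comparison.

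Treg were RFP-positive CD4+ cells sorted from the spleens of CD18wt and CD18Foxp3 mice. CD18, encoded by Itgb2, is the shared beta chain of the beta2 integrins, the adhesion receptors of leukocytes. CD18Foxp3 mice carry CD18 fl/fl, in which exon 3 is flanked by loxP sites, together with Foxp3Cre, so that recombination is restricted to cells that use the Foxp3 promoter. CD18wt mice are CD18 wt/wt Foxp3Cre littermates, so Cre is present in both genotypes. Cells were kept overnight in recombinant human IL-2 at 5 U/ml, either alone (unstimulated) or with agonistic anti-CD3 at 1 µg/ml and anti-CD28 at 2 µg/ml (stimulated). Each of the 4 groups has 3 libraries, 12 in all. The study describes the values of a group as those of individual mice. The sources used here give neither the age of these mice nor whether the 2 cultures of a genotype came from the same mice.

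In glycolysis, glucose enters through facilitative transporters, is trapped as a phosphate by hexokinase, committed by phosphofructokinase, split by aldolase and oxidised to pyruvate with a net gain of ATP. Lactate dehydrogenase then reduces pyruvate to lactate, which leaves through monocarboxylate transporters, while pyruvate dehydrogenase, held in check by its kinases, sends pyruvate to the mitochondria instead. The pentose phosphate pathway yields NADPH in its oxidative branch and ribose phosphate for nucleotides in its non-oxidative branch. T cells that receive signals through their antigen receptor and CD28 are known for a switch to high glucose use, and Treg are known for relying less on it than conventional T cells do.

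The libraries held 10665174 to 19005482 reads in exons. All 7 Treg markers (Foxp3, Il2ra, Ctla4, Ikzf2, Tnfrsf18, Cd3e and Cd4) had reads in all 12 libraries, with a summed level of 1624 to 4459 TPM (reads per exon length, scaled to the same sum in every library). Itgb2 was at 387 to 465 TPM in unstimulated CD18wt and 229 to 257 TPM in unstimulated CD18Foxp3 libraries, and at 329 to 331 against 131 to 202 TPM after stimulation. Summed markers of other cells stayed lower, at 0.443 to 15.7 TPM for 6 myeloid genes and 76.6 to 146 TPM for 5 cytotoxic lymphocyte genes, of which Ncr1 was at 0 throughout. With stimulation, the sum of 4 B cell genes went from 22.6 to 30.4 TPM in the unstimulated libraries down to 8.75 to 19.8 TPM. Cd79b made up most of that sum in every library, and no other B cell gene exceeded 1.84 TPM. The sum of 3 plasma cell genes went from 58.7 to 72.2 TPM up to 126 to 163 TPM. That rise was in Xbp1 alone, from 57.5 to 70.1 TPM up to 126 to 163 TPM. Jchain was at 0.39 to 4.76 TPM without and 0 to 0.722 TPM with stimulation, and Mzb1 stayed at 1.05 TPM or less. The part of other cells in the stimulation results was not tested. Nor was that of red cells in the values of Bpgm, with a summed level of 4 erythroid genes of 0.0813 to 30.9 TPM. CD18Foxp3 stimulated replicate 1 stood apart from the other libraries of its group, with a chi-square per gene of 58.9 and 64.3 against them and 11.9 between those. CD18wt unstimulated replicate 3, the shallowest library, did so to a lesser degree (41.3 and 39.8, against 11.96), and no call of a member was lost when either was left out of the stimulation comparisons. In bulk RNA, fewer cells that express a gene and less RNA of that gene per cell cannot be told apart.

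RefSeq promoter windows, which run from 250 bases before to 50 bases after a transcript start on GRCm38.p6, were available for 33 of the 34 genes. They are shown here for the 5 members whose RNA rose most on stimulation (mean log2 fold change of both genotypes). Capitals mark the pentamers ACGTG and GCGTG, the core letters bound by hypoxia-inducible factors, on either strand, so that a match on the opposite strand reads CACGT or CACGC. The first of them is contained in CACGTG, the E-box bound by Myc and its relatives, which counts as a core on both strands. Hk2 (chr6:82774405-82774704, minus strand) holds 2 of these cores, Slc16a1 (chr3:104638414-104638713, plus strand) holds 5, Pgam1 (chr19:41911621-41911920, plus strand) holds 3, Slc16a3 (chr11:120948817-120949116, plus strand) holds 2 and Tpi1 (chr6:124814109-124814408, minus strand) holds 0.
Hk2: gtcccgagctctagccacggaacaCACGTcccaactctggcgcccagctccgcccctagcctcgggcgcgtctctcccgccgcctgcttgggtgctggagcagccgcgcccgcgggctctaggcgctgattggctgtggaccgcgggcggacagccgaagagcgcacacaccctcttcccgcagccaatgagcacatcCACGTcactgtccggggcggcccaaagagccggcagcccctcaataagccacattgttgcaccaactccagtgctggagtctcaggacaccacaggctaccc
Slc16a1: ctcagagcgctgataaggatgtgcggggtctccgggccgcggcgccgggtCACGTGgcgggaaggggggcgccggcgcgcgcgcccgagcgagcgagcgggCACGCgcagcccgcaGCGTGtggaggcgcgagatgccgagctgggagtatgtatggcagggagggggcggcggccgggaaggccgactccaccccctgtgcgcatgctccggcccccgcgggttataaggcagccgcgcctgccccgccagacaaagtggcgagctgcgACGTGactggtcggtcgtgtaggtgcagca
Pgam1: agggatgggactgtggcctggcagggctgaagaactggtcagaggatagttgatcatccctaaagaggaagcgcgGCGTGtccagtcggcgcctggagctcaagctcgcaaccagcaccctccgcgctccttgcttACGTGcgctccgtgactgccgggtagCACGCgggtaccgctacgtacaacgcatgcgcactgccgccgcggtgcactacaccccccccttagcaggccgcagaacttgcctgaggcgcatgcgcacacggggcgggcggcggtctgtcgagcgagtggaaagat
Slc16a3: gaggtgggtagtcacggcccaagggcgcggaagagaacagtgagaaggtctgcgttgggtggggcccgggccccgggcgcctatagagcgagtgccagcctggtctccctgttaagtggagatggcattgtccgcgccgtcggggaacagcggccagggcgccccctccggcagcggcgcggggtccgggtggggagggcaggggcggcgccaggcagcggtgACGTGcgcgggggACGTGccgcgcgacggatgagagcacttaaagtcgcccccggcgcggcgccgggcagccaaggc
Tpi1: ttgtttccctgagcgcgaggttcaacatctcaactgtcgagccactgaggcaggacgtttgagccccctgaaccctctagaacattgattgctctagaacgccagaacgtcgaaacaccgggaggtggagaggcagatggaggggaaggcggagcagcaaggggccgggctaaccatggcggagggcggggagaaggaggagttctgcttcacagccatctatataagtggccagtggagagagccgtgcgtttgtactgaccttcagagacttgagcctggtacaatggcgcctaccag
Of the sequences above, that of Slc16a1 has CACGTG.

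Over all members, ACGTG or GCGTG on either strand stood in 37 of 48 windows (77.1%), against 43.8% of all 32851 RefSeq windows of the same length. Counted by gene, 29 of 33 members (87.9%) had such a window, against 46.7% of 27025 genes. The share was 17 of 18 among the members that rose on stimulation in both genotypes and 12 of 15 among the other members. CACGTG was less frequent, with a window in 5 of 33 members (15.2%) and in 8.09% of all genes. These matches describe letters in the window and say nothing of occupancy. The sets of all windows and all genes were not matched to the members in expression, base composition or windows per gene. The part of these in the higher shares of the members was not tested.

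With stimulation, RNA of most steps of the glycolytic chain was higher in both genotypes. In CD18wt Treg, 18 of 34 members rose and 3 fell, where 18.7% of the 11930 genes tested rose and 14.9% fell. In CD18Foxp3 Treg, 19 rose and 4 fell, where 20.9% of 12019 genes rose and 17.6% fell. A member was called when it changed 1.5-fold or more at an adjusted p no higher than 0.01 in edgeR's quasi-likelihood test on exon read counts with Benjamini-Hochberg adjustment over all genes tested. The median log2 fold change of the members was 0.80 in CD18wt and 0.70 in CD18Foxp3, while the median of all genes tested was 0.024 and 0.015. The same 18 genes rose in both genotypes (Slc2a1, Hk2, Pfkl, Pfkp, Aldoa, Tpi1, Gapdh, Pgk1, Pgam1, Eno1, Pkm, Ldha, Slc16a1, Slc16a3, Pdk3, G6pdx, Pgd and Tkt), and Slc2a3, Ldhb and Pdk2 fell in both. Eno3 and Pdk1 passed the threshold in CD18Foxp3 Treg alone, and 11 members passed in neither genotype. By level, 27 of 34 members had higher TPM in every stimulated than in every unstimulated CD18wt library and 3 had lower TPM, where 47.8% and 14.2% of all genes did. In CD18Foxp3 these were 22 and 4 members, where 47.9% and 19.2% of all genes did.

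Scale matters for these counts. Fold changes here are relative to edgeR's TMM scaling, under which the typical gene stays near 0. On TPM, the median gene tested rose by 0.36 on the log2 scale in CD18wt and by 0.31 in CD18Foxp3, with a pseudocount of 1. Accordingly, rises made up 55.7% and 54.3% of all calls under TMM and 80.7% and 75.9% of those made by limma on log2(TPM + 1). The members counted on TPM were 19 higher and 1 lower in CD18wt, where 3589 of 11930 genes were higher and 858 lower. In CD18Foxp3 they were 20 higher and 3 lower, where 3783 of 12019 genes were higher and 1201 lower. Levels below are in TPM, and log2 fold changes are from the edgeR fits with their standard errors (SE).

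As a share of all RNA on the TPM scale, the 34 genes together grew from 0.348% to 0.393% in the 6 unstimulated libraries to 0.803% to 1.12% in the 6 stimulated ones. Their summed level was 3621 ± 165 TPM (mean ± SD, n = 3) in unstimulated and 9893 ± 1244 TPM in stimulated CD18wt Treg, a ratio of 2.73. In CD18Foxp3 Treg it was 3687 ± 213 and 9588 ± 1489 TPM, a ratio of 2.60. The genotypes overlapped in both cultures. In RPKM, which is not rescaled to a common sum, the ratios were 2.34 and 2.27. Taken by level, 6 genes (Ldha, Pkm, Pgk1, Aldoa, Eno1 and Pgam1) made up 72.9% and 73.6% of the summed TPM of the members after stimulation. These sums and ranks take the reads of each gene as counted, and some members share sequence with other genes, as described below. The plot of TPM by library shows the 6 genes at the right edge.

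**Figure D1:**
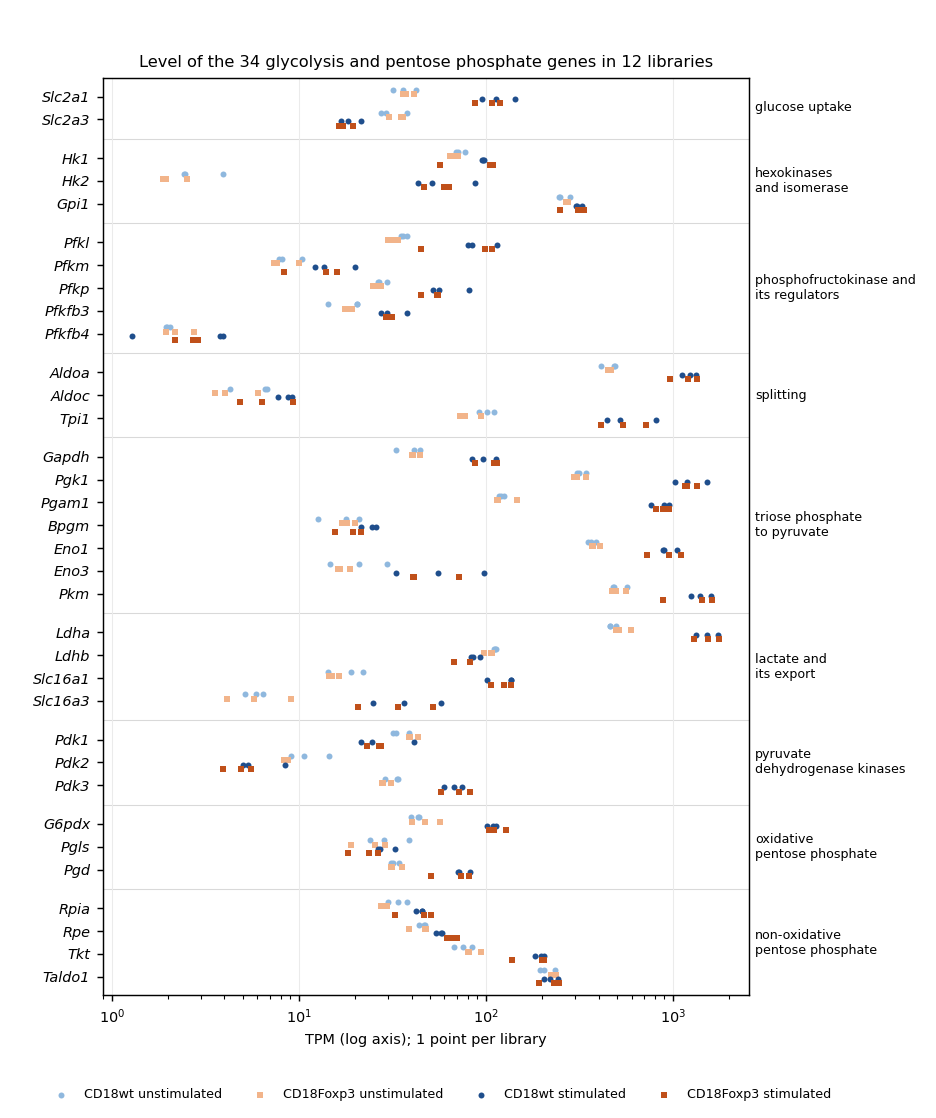
TPM of each of the 34 genes (rows, by role in the pathway) in each of the 12 libraries (points; log axis), coloured by group. Hk2 moves farthest between cultures, from 1.88 to 3.92 TPM unstimulated to 43.1 to 86.9 TPM stimulated, while the points of both genotypes lie close together in each culture.

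The glucose transporters moved apart. Slc2a1, which encodes GLUT1, the transporter of basal uptake in most cells, was at 31.8, 42.4 and 35.8 TPM in the unstimulated CD18wt libraries and at 95.3, 113 and 142 TPM in the stimulated ones. In CD18Foxp3 it went from 35.9, 37.6 and 41.1 to 87.9, 108 and 119 TPM. No stimulated library overlapped an unstimulated one, and the log2 fold changes were 1.27 ± 0.16 and 1.09 ± 0.13 (adjusted p = 3.64e-05 and 9.72e-05). Slc2a3, which encodes GLUT3, a transporter of high affinity, did the opposite. It was at 37.9, 29.2 and 27.3 TPM without and 18.4, 16.7 and 21.4 TPM with stimulation in CD18wt, and at 30.4, 35.3 and 36.1 and 17.3, 19.4 and 16.3 TPM in CD18Foxp3. Its log2 fold changes were -1.14 ± 0.14 and -1.31 ± 0.12, and again the cultures did not overlap.

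Hk2, the inducible hexokinase, had the largest change among the members. In CD18wt Treg it was near the bottom of the list without stimulation, at 2.43, 2.46 and 3.92 TPM, and rose to 43.1, 51.5 and 86.9 TPM. CD18Foxp3 Treg gave 1.88, 1.95 and 2.53 TPM and 46.8, 60.0 and 63.7 TPM. These are fold changes of 15.7 and 20.8, or 3.97 ± 0.32 and 4.38 ± 0.17 on the log2 scale (adjusted p = 1.29e-05 and 6.15e-07). Hk1, the hexokinase of most resting cells, did not pass the threshold in either genotype, with log2 fold changes of 0.014 ± 0.13 and 0.056 ± 0.21. Its TPM was 71.1, 69.1 and 77.1 without and 96.8, 97.9 and 95.2 with stimulation in CD18wt, where the groups did not overlap on that scale. Gpi1, which turns glucose phosphate into fructose phosphate, had log2 fold changes of -0.13 ± 0.13 and -0.23 ± 0.12 under TMM, and the sign turned to 0.28 and 0.12 on log2(TPM + 1), so no direction can be given for it.

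Of the phosphofructokinase genes, the liver form Pfkl and the platelet form Pfkp rose in both genotypes, and the muscle form Pfkm passed in neither. Pfkl was at 35.9, 34.9 and 37.6 TPM in unstimulated and 80.2, 84.4 and 115 TPM in stimulated CD18wt Treg. In CD18Foxp3 it was at 30.0, 33.9 and 32.1 and then 45.0, 98.9 and 108 TPM, the lowest of the latter being the library that stood apart. The log2 fold change in CD18Foxp3 was 1.01 ± 0.26 with all libraries and 1.29 without that one. Pfkp had log2 fold changes of 0.78 ± 0.16 and 0.62 ± 0.11, from means of 27.7 and 26.2 TPM. In CD18Foxp3 neither call held under upper-quartile scaling, where the log2 fold changes were 0.95 for Pfkl and 0.55 for Pfkp. Pfkm, the least abundant of them at 7.38 to 10.4 TPM without stimulation, had log2 fold changes of 0.38 ± 0.23 and 0.24 ± 0.24. Pfkfb3 and Pfkfb4 encode the enzymes that make and remove the sugar bisphosphate that activates phosphofructokinase. Pfkfb3 had log2 fold changes of 0.38 ± 0.15 and 0.35 ± 0.11, short of the threshold under TMM but past it on log2(TPM + 1), at 0.75 and 0.69. Pfkfb4 ranged from 1.29 to 3.94 TPM in all libraries.

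Aldolase and triosephosphate isomerase split the sugar and bring both pieces into a common form. Aldoa, the main aldolase here, was at 484, 414 and 488 TPM and then 1114, 1231 and 1321 TPM in CD18wt, with log2 fold changes of 1.00 ± 0.15 there and 0.98 ± 0.12 in CD18Foxp3. The brain form Aldoc ranged from 3.56 to 9.34 TPM in all 12 libraries and passed in neither genotype. Tpi1 had a larger change than Aldoa. It went from 101, 92.3 and 109.9 to 444, 521 and 812 TPM in CD18wt and from 77.2, 72.2 and 93.5 to 414, 542 and 717 TPM in CD18Foxp3. The log2 fold changes were 2.14 ± 0.20 and 2.42 ± 0.19 (adjusted p = 4.32e-06 and 1.15e-05), with a wide spread among the stimulated libraries of either genotype.

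Of the 7 genes that act between triose phosphate and pyruvate, 5 rose in CD18wt and 6 in CD18Foxp3, where 18.7% and 20.9% of all genes rose. Pgam1, the phosphoglycerate mutase, changed most, and was at 117, 125 and 120.1 TPM and then 761, 947 and 898 TPM in CD18wt. In CD18Foxp3 it was at 116, 114 and 146 and 882, 809 and 948 TPM. Its log2 fold changes of 2.45 ± 0.15 and 2.45 ± 0.13 correspond to a fold change of 5.46 in both genotypes. Pgk1, the kinase of the first step that yields ATP, followed with 1.54 ± 0.16 and 1.61 ± 0.11, from means of 321 ± 17.9 and 315 ± 25.1 TPM to 1242 ± 251 and 1236 ± 98.0 TPM (SD, n = 3 each). Pkm, the pyruvate kinase of lymphocytes and of the last ATP-yielding step, went from 482, 478 and 569 to 1253, 1389 and 1591 TPM in CD18wt and had log2 fold changes of 1.06 ± 0.16 and 1.00 ± 0.19. Eno1, the common enolase, had 0.95 ± 0.15 and 0.90 ± 0.14, and Gapdh, the dehydrogenase often used as a reference gene, had 0.91 ± 0.15 and 0.96 ± 0.13. All of these passed in both genotypes and none had overlapping TPM values between the cultures.

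Eno3, the muscle enolase, rose in CD18Foxp3 Treg (1.20 ± 0.23, adjusted p = 0.00173) and did not pass in CD18wt (1.10 ± 0.42, adjusted p = 0.0653). The CD18wt libraries spread widely, from 14.7, 21.1 and 29.5 TPM without to 33.1, 55.2 and 97.0 TPM with stimulation. The difference between the genotypes in this response was 0.094 ± 0.50 on the log2 scale (adjusted p = 0.994), so the calls do not show that the genotypes differed. Bpgm, which makes the bisphosphoglycerate of red blood cells, had log2 fold changes of 0.091 ± 0.20 and -0.34 ± 0.16, and its value in CD18Foxp3 turned to 0.024 on log2(TPM + 1).

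Reads were 59 bases long, and some of these genes share words of that length with others, while how reads with several matches were placed is not given in the sources used here. Of the 59-base words in the annotated Gapdh transcripts, 20.2% also occur in at least 10 other genes, and 168 other genes share a word with it. Gapdh was listed at only 33.1 to 44.5 TPM in unstimulated libraries, below Pgk1 at 297 to 344 TPM, its neighbour in the pathway. Words shared with other genes made up 53.5% of those of Pgk1, 35.7% of those of Pgam1 and 24.8% of those of Eno1. Of the counted reads, 98.4% for Gapdh and 100% for Pgk1 and Pgam1 were unique. None of the genes that share words with Pgk1 or Pgam1 is among the genes listed. Such shares cover counted reads alone, so they do not show whether other reads were left out or placed elsewhere. In Eno1, 29.5% of the counted reads were placed uniquely. With unique reads alone, its log2 fold changes were 0.98 and 0.92, and the counts of members past the threshold were the same as with all reads. The part of read placement in the level of Gapdh, and in the summed levels, ranks and shares of the members, was not tested.

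**Figure D2:**
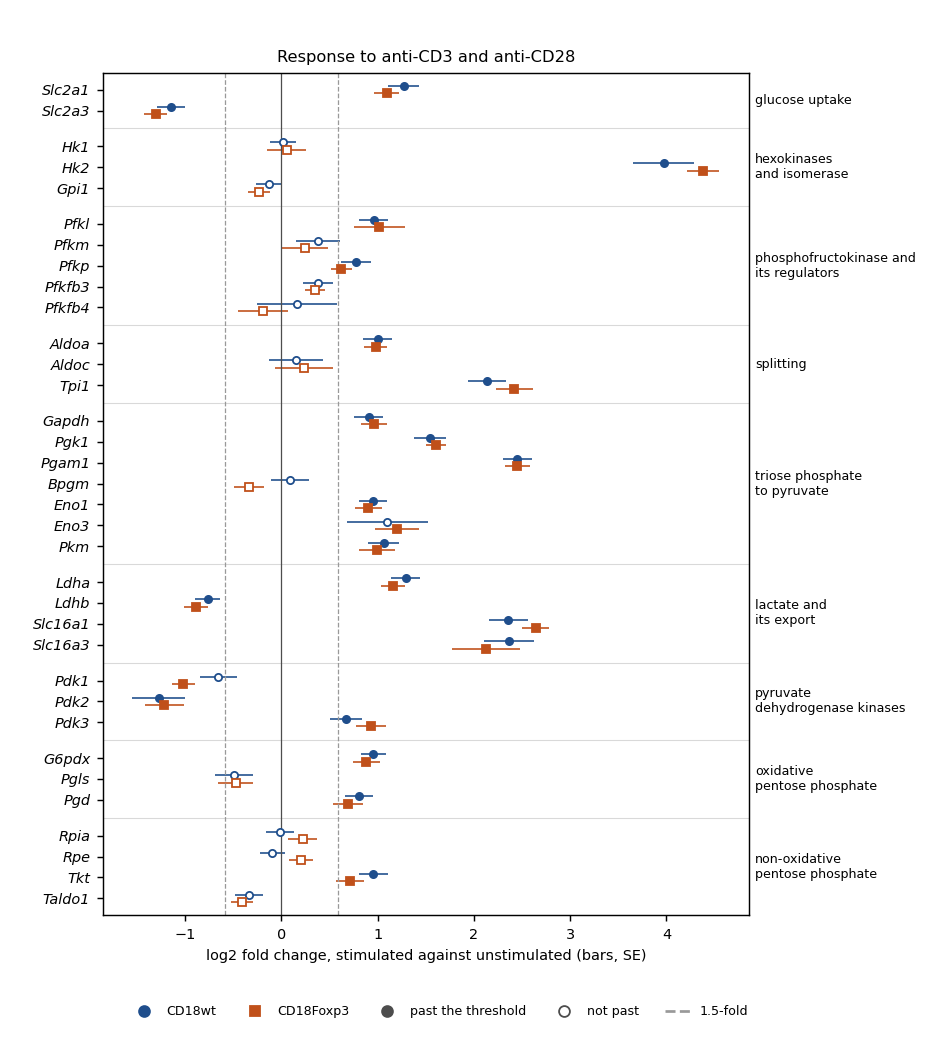
Log2 fold change of each gene on stimulation (x axis; bars, SE) in CD18wt (circles) and CD18Foxp3 (squares), by role. Filled symbols passed the threshold, dashed lines mark a fold change of 1.5, and the symbols of both genotypes lie side by side, with Hk2 highest at 3.97 and 4.38, and with the lowest at -1.27 (Pdk2, CD18wt) and -1.31 (Slc2a3, CD18Foxp3).

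At the end of the pathway, the gene that favours lactate and both lactate exporters rose, while the other lactate dehydrogenase fell. Ldha, whose product is the form suited to making lactate, was at 462, 461 and 496 TPM and then 1332, 1517 and 1739 TPM in CD18wt, and at 516, 495 and 593 and 1296, 1537 and 1771 TPM in CD18Foxp3. Its log2 fold changes were 1.29 ± 0.15 and 1.16 ± 0.13. Ldhb, the form suited to using lactate, fell from 112, 112 and 111 to 85.3, 82.8 and 92.5 TPM in CD18wt and from 108, 107 and 97.1 to 67.6, 67.3 and 82.1 TPM in CD18Foxp3. Those groups did not overlap, and the log2 fold changes of -0.76 ± 0.13 and -0.89 ± 0.13 passed the threshold under TMM. On log2(TPM + 1) they were -0.36 and -0.52, short of a fold change of 1.5.

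Slc16a1, which encodes the monocarboxylate transporter MCT1, went from 14.3, 19.1 and 22.0 to 101, 136 and 137 TPM in CD18wt. In CD18Foxp3 it went from 14.9, 16.3 and 14.5 to 137, 125 and 106 TPM, with log2 fold changes of 2.36 ± 0.20 and 2.64 ± 0.14. It is among the members that rose most in either genotype. Slc16a3, which encodes MCT4, the exporter of strongly glycolytic cells, started lower, at 5.87, 6.39 and 5.14 and 5.74, 4.14 and 9.04 TPM. It reached 24.9, 36.6 and 57.2 TPM in CD18wt and 20.7, 33.7 and 52.3 TPM in CD18Foxp3. The log2 fold changes were 2.36 ± 0.26 and 2.13 ± 0.35, and the stimulated libraries of either genotype spread more than 2-fold, yet none reached down to an unstimulated one.

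The kinases that switch off pyruvate dehydrogenase did not move as a group. Pdk3 rose in both genotypes (0.67 ± 0.17 and 0.93 ± 0.16), from 33.4, 29.0 and 34.04 to 67.4, 74.0 and 59.6 TPM in CD18wt and from 27.7, 28.0 and 30.9 to 82.1, 57.4 and 72.0 TPM in CD18Foxp3. The CD18wt call for Pdk3 was lost when CD18wt unstimulated replicate 1 or 2, or stimulated replicate 1 or 2, was left out, with log2 fold changes of 0.49 to 0.77 over all single omissions. Pdk2 fell in both (-1.27 ± 0.27 and -1.21 ± 0.20). It was the least abundant of these kinases, at 14.4, 10.7 and 9.11 TPM without and 8.45, 5.01 and 5.33 TPM with stimulation in CD18wt. Without CD18wt unstimulated replicate 1, its highest library, the log2 fold change in CD18wt was -1.09 and no longer passed. Nor did Pdk2 pass in CD18wt on log2(TPM + 1) or log2(TPM + 0.1), at -0.78 and -0.87, while it did in CD18Foxp3 on log2(TPM + 1). Pdk1 fell in CD18Foxp3 (-1.02 ± 0.12, adjusted p = 0.000101), from 43.6, 39.3 and 39.0 to 27.5, 26.8 and 23.1 TPM. In CD18wt the value was -0.65 ± 0.20 (adjusted p = 0.0158). There the unstimulated libraries were at 33.0, 38.8 and 32.0 TPM and the stimulated ones at 21.6, 24.6 and 41.4 TPM, so that replicate 3 of the latter overlapped the former. Without that library the log2 fold change was -0.94 and passed. The difference in response between the genotypes was -0.37 ± 0.25 (adjusted p = 0.988).

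In the pentose phosphate pathway, the NADPH-yielding dehydrogenases and transketolase rose and the other enzymes did not pass. G6pdx, which controls entry into the oxidative branch, was at 43.8, 43.1 and 39.7 TPM without and 114, 109 and 101 TPM with stimulation in CD18wt. CD18Foxp3 gave 40.0, 47.4 and 56.5 and 104, 110.2 and 128 TPM, and the log2 fold changes were 0.96 ± 0.13 and 0.88 ± 0.14. Pgd, the second NADPH-yielding enzyme, had 0.81 ± 0.15 and 0.69 ± 0.16. Between them in the pathway, Pgls, the lactonase, had -0.49 ± 0.20 and -0.47 ± 0.18 and overlapping TPM values in both genotypes. In the non-oxidative branch, Tkt, the transketolase, went from 67.5, 75.5 and 84.2 to 182, 196 and 205 TPM in CD18wt and had log2 fold changes of 0.96 ± 0.15 and 0.71 ± 0.15. The other genes of that branch differed from Tkt. Taldo1, the transaldolase, started higher than Tkt, at 195 to 236 TPM, and had -0.33 ± 0.14 and -0.41 ± 0.11 under TMM, with a turn of sign to 0.070 in CD18wt on log2(TPM + 1). Rpia and Rpe, which interconvert the pentose phosphates, had -0.010 ± 0.15 and -0.093 ± 0.13 in CD18wt, where both signs turned on log2(TPM + 1), and 0.22 ± 0.15 and 0.20 ± 0.12 in CD18Foxp3.

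Leaving out libraries removed some calls in CD18Foxp3 more than in CD18wt. In CD18wt, 17 or 18 members rose whichever library was omitted, while 1843 to 2182 of all genes rose, against 2234 with all libraries. Of these 6 omissions, 4 ended the call of Pdk3 and 1 that of Pdk2. In CD18Foxp3 the count of members ran from 13 to 19, while 1973 to 2571 of all genes rose, against 2516 with all libraries. The member count was 13 without unstimulated replicate 1, when Pfkl, Pfkp, Eno3, Pkm, Pgd and Tkt no longer passed. In that omission 1973 of 12343 genes rose. The member count was 16 without any of the other unstimulated libraries or without stimulated replicate 2 or 3. Of the 6 omissions there, 5 ended the call of Pfkl, 5 that of Pgd, 3 that of Tkt, 2 each those of Pfkp and Eno3, and 1 that of Pkm. Without stimulated replicate 1, the library that stood apart, 19 members rose and 4 fell, as with all libraries.

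Shares within enzyme families follow from the levels and do not depend on the scaling between libraries. They do depend on the exon length by which the reads of each gene were divided. Hk2 made up 3.31, 3.44 and 4.84% of the summed TPM of Hk1 and Hk2 in unstimulated CD18wt libraries and 30.8, 34.5 and 47.7% in stimulated ones. In CD18Foxp3 the mean went from 3.06% ± 0.345 to 39.6% ± 4.95 (SD, n = 3). So Hk1 stayed the more abundant hexokinase RNA in every library. For the transporters, Slc2a1 held 53.9% ± 7.22 and 53.0% ± 1.31 of the sum with Slc2a3 without stimulation and 85.9% ± 1.85 and 85.4% ± 2.29 with it. Both shares rose without overlap between the cultures.

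Among the pyruvate dehydrogenase kinases, the shares of Pdk1 and Pdk3 moved in opposite directions. Pdk1 held 40.8, 49.4 and 42.6% of the summed TPM of Pdk1, Pdk2 and Pdk3 in unstimulated CD18wt and 54.7, 51.7 and 49.6% in unstimulated CD18Foxp3 libraries. Pdk3 held 41.3, 36.9 and 45.3% and 34.8, 36.8 and 39.3%, so that Pdk1 led in every unstimulated CD18Foxp3 library but in replicate 2 alone of CD18wt. After stimulation Pdk1 held 22.2, 23.7 and 39.0% and 24.0, 29.9 and 23.3%, while Pdk3 was at 65.5% ± 8.32 and 69.5% ± 4.76. By TPM, Pdk3 was thus the most abundant of the 3 in every stimulated library. That rank rests on exon length, 7779 bases for Pdk1 and 2561 for Pdk3. In exon reads, Pdk1 exceeded Pdk3 in stimulated CD18wt replicates 2 and 3 (1098 against 1088, 1662 against 787). It also did so in stimulated CD18Foxp3 replicates 1 and 2 (1357 against 1332, 1158 against 817) and in every unstimulated library. Pdk3 had more reads in stimulated CD18wt replicate 1 (665 against 647) and CD18Foxp3 replicate 3 (944 against 920). The phosphofructokinase mix moved less, with Pfkl at 49.8% ± 1.97 and 48.2% ± 2.03 before and 54.5% ± 1.06 and 54.9% ± 8.12 after stimulation. The last of these spans 45.7, 58.0 and 61.0%, and its lowest value is that of the library that stood apart. Exon length enters here too, since Pfkp (13401 bases) had more exon reads than Pfkl (6675 bases) in every library. Slc16a1 kept 75.6% ± 5.12 and 76.5% ± 5.24 of the sum with Slc16a3 in CD18wt, with overlap.

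Ldha held 80.4, 80.5 and 81.7% of the summed TPM of Ldha and Ldhb in unstimulated CD18wt and 82.8, 82.3 and 85.9% in unstimulated CD18Foxp3 libraries. After stimulation the shares were 94.0, 94.8 and 94.9% and 95.04, 95.8 and 95.6%. Among the 13 shares computed, this one alone had genotypes that did not overlap in either culture, CD18Foxp3 being higher in both. It was singled out after its values were seen, and no exact permutation test of 3 against 3 libraries can go below p = 0.1.

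**Figure D3:**
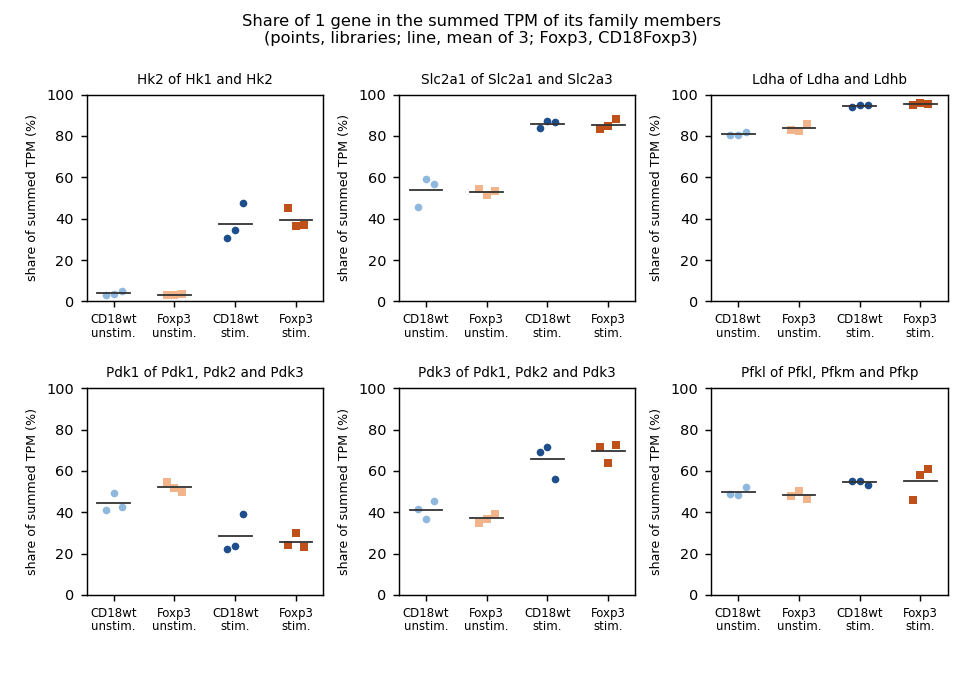
Share of 1 gene in the summed TPM of its family (y axis, %) in each library (points) with the mean of 3 (line), by group. The shares of Hk2, Slc2a1, Ldha and Pdk3 are higher and that of Pdk1 is lower in stimulated Treg of both genotypes, and the Ldha share of CD18Foxp3 lies just above that of CD18wt in each culture.

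Over the 34 members, the log2 fold changes on stimulation in CD18wt and in CD18Foxp3 had a Pearson r of 0.988 and a Spearman rho of 0.980, which describes 34 genes measured in the same libraries of each genotype and not independent replicates. The sign was the same for 30 of 34, and the largest difference between the separate fits was 0.43. The test of that difference, an interaction term in 1 edgeR fit of all 12 libraries, found 0 of 34 members past the threshold, where 0% of 12636 genes passed. At an unadjusted p under 0.05 there were also 0 of 34, against 3.84% of all genes, and DESeq2 likewise gave 0 members. The widest differences in response were those of Bpgm at -0.43 ± 0.26, Hk2 at 0.40 ± 0.36 and Pdk1 at -0.37 ± 0.25. Their 95% confidence intervals, -0.99 to 0.12 for Bpgm, -0.36 to 1.17 for Hk2 and -0.90 to 0.15 for Pdk1, all include 0. For 30 of 34 members the interval excludes a 2-fold difference in response, and for Hk2, Pfkfb4, Eno3 and Slc16a3 it does not.

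Between genotypes without stimulation, none of the members passed the threshold. CD18Foxp3 and CD18wt Treg differed past it in 0 of 34 members, where 0.135% of 11829 genes passed, and DESeq2 gave 0 members as well. At an unadjusted p under 0.05 there were 4 of 34 members (Tpi1, Pdk1, Pdk2 and Rpia), against 9.59% of all genes. The log2 fold changes ran from -0.50 to 0.21, and the lowest adjusted p was 0.284. For 33 of 34 members the 95% confidence interval lay within a 2-fold difference.

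The widest of these differences were all toward lower RNA in CD18Foxp3. Hk2 was at -0.50 ± 0.28 on the log2 scale (95% confidence interval -1.10 to 0.11), with the CD18wt mean raised by 1 library at 3.92 TPM. Pdk2 was at -0.43 ± 0.18, with every CD18Foxp3 library (8.37, 8.78 and 8.74 TPM) below every CD18wt library (14.4, 10.7 and 9.11 TPM). Aldoc was at -0.40 ± 0.27 and Eno3 at -0.36 ± 0.25, both with overlapping values. Tpi1 was at -0.35 ± 0.11, with 77.2, 72.2 and 93.5 TPM in CD18Foxp3 and 101, 92.3 and 109.9 TPM in CD18wt, where only the highest CD18Foxp3 library overlapped (adjusted p = 0.284). Permuting the library labels exactly (two-sided, log2(TPM + 1)) gave p = 0.1 for Pdk2, the smallest that 3 against 3 libraries allow, and p = 0.2 to 0.5 for the other 4 genes. On TPM, Pdk1 lay above in every CD18Foxp3 library, 1 of 34 members where 8.74% of all genes did. Pfkl, Ldhb, Pdk2 and Rpia lay below, 4 of 34 members where 6.9% of all genes did.

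After stimulation the genotypes differed past the threshold in 0 of 34 members, where 0% of 11930 genes passed. No member reached an unadjusted p under 0.05, against 4.89% of all genes, and DESeq2 gave 0 members. The range was -0.37 to 0.23, with a lowest adjusted p of 0.998. The widest differences were Pdk2 at -0.37 ± 0.31, Bpgm at -0.35 ± 0.20, Pgls at -0.33 ± 0.18, Aldoc at -0.32 ± 0.30 and Eno3 at -0.26 ± 0.34. Of these, Pgls alone did not overlap, at 32.7, 26.4 and 27.2 TPM in CD18wt and 18.3, 26.3 and 23.6 TPM in CD18Foxp3, and the exact two-sided permutation test gave p = 0.1 for it. Ldhb lay lower in all CD18Foxp3 libraries as well (-0.25 ± 0.16), and Rpe lay higher (0.23 ± 0.15). On TPM, 1 of 34 members thus lay above in every CD18Foxp3 library and 2 below, where 5.02% and 4.41% of all genes did. The 95% confidence interval stayed within a 2-fold difference for 31 of 34 members, and it did not for Pfkfb4, Pdk2 and Eno3.

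The sign of many of these small differences rested on 1 library. With all libraries, 26 of 34 members were below 0 in stimulated CD18Foxp3 against CD18wt, with a median of -0.089, where 50.5% of all genes were below 0. Without CD18Foxp3 stimulated replicate 1, 15 were below and 19 above 0, with a median of 0.033, where 51.6% of all genes were below 0. That library had the lowest TPM of the 6 stimulated ones in 18 of 34 members, a count that was not made over all genes. Its Pkm was at 889 TPM where the other 5 were at 1253 or more, and its Hk1 was at 56.6 TPM where the other 5 were at 95.2 or more.

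**Figure D4:**
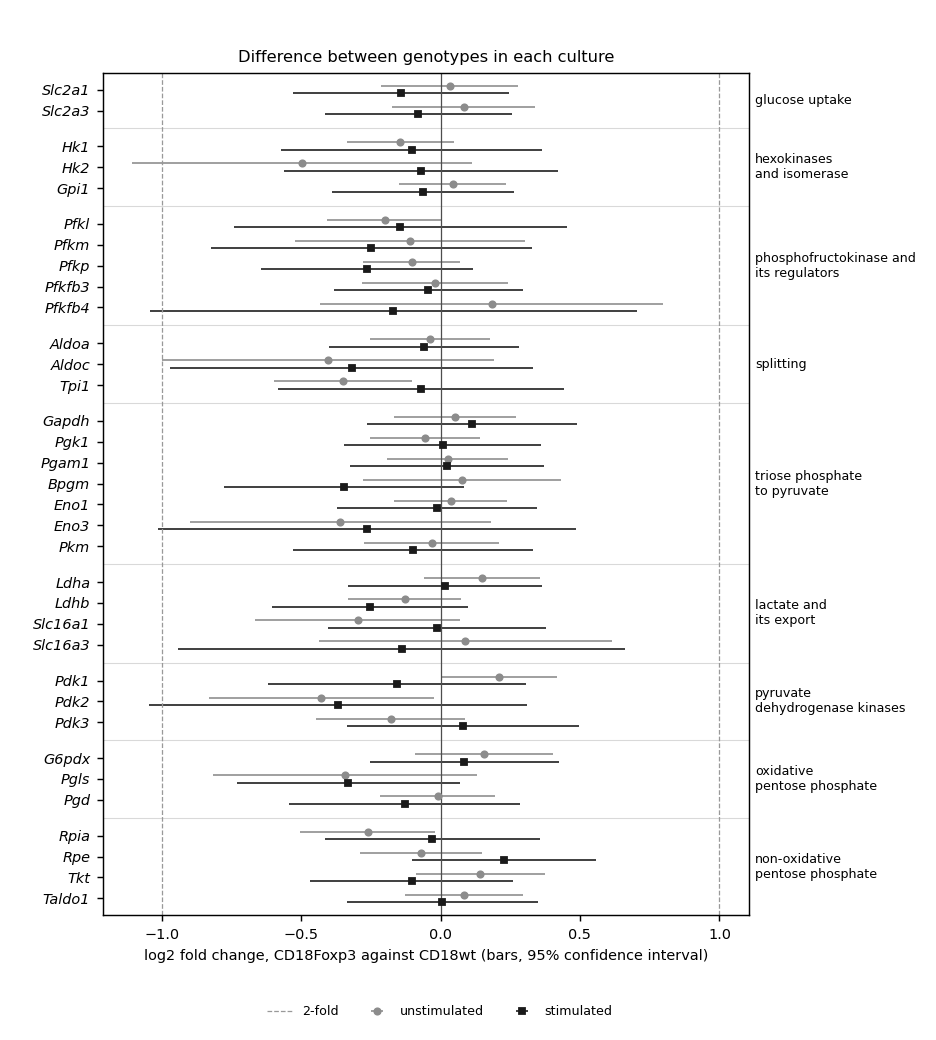
Log2 fold change of CD18Foxp3 against CD18wt (x axis; bars, 95% confidence interval) for each gene in unstimulated (grey circles) and stimulated (black squares) Treg, by role. All points lie between -0.50 and 0.23, and the dashed lines mark a 2-fold difference.

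Isozymes outside the list were scarce. Of 16 other genes for the same steps, 4 were abundant enough to be tested in CD18wt (Pgam2, Eno2, Pfkfb1 and Pfkfb2) and 3 in CD18Foxp3. Of these 0 passed, where 33.6% and 38.6% of all genes did. Pfkfb1 came closest, with 2.0 ± 0.58 in CD18wt and 1.32 ± 0.49 in CD18Foxp3 (edgeR adjusted p = 0.0118 and 0.0445). Its level was low, with means of 0.51 and 2.78 TPM in unstimulated and stimulated CD18wt. Hk3, Pklr, Slc2a4 and Pdk4, known from other tissues, had at most 13 reads in any library, and were picked out here after their values were seen.

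Enzymes next to the pathway were a mixed group. Of 22 such genes 21 were tested, and 7 rose and 2 fell in CD18wt, while 9 rose and 1 fell in CD18Foxp3. Over all genes tested, 18.7% rose and 14.9% fell in CD18wt, and 20.9% rose and 17.6% fell in CD18Foxp3. Phgdh, which draws off glycolytic carbon for serine synthesis, rose from 103 ± 21.9 to 460.2 ± 82.4 TPM in CD18wt (1.75 ± 0.19) and with 1.58 ± 0.19 in CD18Foxp3. Tigar, a phosphatase that turns flux toward the pentose phosphate pathway, rose by 1.42 ± 0.17 and 1.14 ± 0.15, and Gpd2, the mitochondrial enzyme of the glycerol phosphate shuttle, by 1.07 ± 0.17 and 1.61 ± 0.14. Of the pyruvate dehydrogenase complex, Dlat (1.05 ± 0.14 and 0.90 ± 0.12) and Pdhx (0.84 ± 0.22 and 1.00 ± 0.20) rose in both genotypes. Dld passed in CD18Foxp3 (0.70 ± 0.17) and fell short of 1.5-fold in CD18wt (0.55 ± 0.12). Pdp2, a phosphatase that opposes the Pdk kinases, passed in CD18Foxp3 (0.92 ± 0.13) and narrowly did not in CD18wt (0.68 ± 0.20, edgeR adjusted p = 0.0111). Bsg, the chaperone that brings MCT1 and MCT4 to the membrane, rose with them (0.90 ± 0.13 and 0.69 ± 0.15), as did the phosphatase gene G6pc3 (0.69 ± 0.18 and 0.77 ± 0.14). Shpk, which phosphorylates the sugar sedoheptulose, fell in both (-1.55 ± 0.43 and -1.69 ± 0.27). Prps2, which uses ribose phosphate for nucleotides, passed in CD18wt (-0.77 ± 0.13) and not in CD18Foxp3 (-0.54 ± 0.15, edgeR adjusted p = 0.0142). The edgeR interaction test gave an adjusted p of 0.9875 for each of Dld, Pdp2 and Prps2, so these calls do not show that the genotypes differed.

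Among 4 known regulators of these genes, Myc rose (1.87 ± 0.31 and 1.78 ± 0.14) and Txnip, an arrestin-like protein that draws glucose transporters from the surface, fell in both genotypes (-2.70 ± 0.47 and -2.73 ± 0.12). Hif1a passed in CD18Foxp3 alone (0.91 ± 0.14, against 0.037 ± 0.14 in CD18wt). Without stimulation it was lower in CD18Foxp3 (-0.69 ± 0.088, adjusted p = 0.0064). That call held in 1 of 6 single-library omissions, that of CD18wt replicate 3, and was lost with all 12 libraries in 1 fit (adjusted p = 0.101) and with limma on log2(TPM + 1) and log2(TPM + 0.1) (adjusted p = 0.0499 and 0.0478). The difference between its responses did not pass (0.86 ± 0.19, adjusted p = 0.658). Mlxip, a glucose sensor, had -0.27 ± 0.17 and -0.51 ± 0.10.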

How the data were processed

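Total RNA of sorted splenic Treg was enriched for poly(A) and sequenced as single reads of 59 bases, and per the study's methods reads were trimmed, aligned to GRCm38 and counted per gene in CLC Genomics Workbench with default settings. The deposited tables hold, per library, whole-number counts of total and of unique exon reads per gene, which the authors did not normalise. TPM and RPKM stand beside them, written by the authors with decimal commas, and TPM was recomputed here from counts and exon length. The authors pooled no replicates, and the annotation used is not given in the sources used here.

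Groups came from the sample titles. Counts were tested with edgeR 4.0.16 (R 4.3.3; TMM, filterByExpr with a minimum count of 10, robust quasi-likelihood F-test) in the 6 libraries of each comparison, and in all 12 for the interaction, with Benjamini-Hochberg adjustment over all genes tested. The threshold (1.5-fold, adjusted p 0.01) is that of the study. Every member is named. In the genotype comparisons and the interaction, statistics are given for members past the threshold and for the 5 (interaction, 3) widest. Neighbours are named when past the threshold on stimulation, and regulators always. Other isozymes are named when tested or when picked out after their values were seen. Members named in counts of 5 or fewer were named after their values were seen. The members and all lists were chosen with earlier results of these data known. On simulated counts with 200 genes changed 2-fold, the test recovered 125 (CD18wt) and 140 (CD18Foxp3) in the stimulation comparisons, 138 (unstimulated) and 118 (stimulated) between genotypes, and 44 in the interaction, with 0 to 5 false calls each. Many more genes were called on stimulation in the data (4013 in CD18wt and 4636 in CD18Foxp3), so the simulated false calls need not hold there.

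Alternatives were DESeq2 1.42.0, limma 3.58.1 on log2(TPM + 1) or log2(TPM + 0.1), upper-quartile scaling, library size alone, other filters, unique reads, a replicate block, 1 fit of all libraries, an adjusted p of 0.05 and omission of each library. Promoter windows and motifs are from RefSeq (GRCm38.p6), and shared words from GENCODE transcripts.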

Additional observations from a re-analysis of the deposited data

How the results depend on the processing

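Counts of members that rose or fell on stimulation stayed within 1.5 times of those reported under every alternative run, except that only 1 member fell in CD18wt on log2(TPM + 1) and likewise 1 on log2(TPM + 0.1). With single libraries left out, 17 to 18 members rose and 2 to 4 fell in CD18wt, and 13 to 19 rose and 4 fell in CD18Foxp3. Over all genes, 3251 to 3843 were then called in CD18wt and 3591 to 4889 in CD18Foxp3, against 4013 and 4636 with all libraries. Both genotype comparisons and the interaction gave 0 members under every alternative. The ratio of summed levels in CD18wt was 2.34 in RPKM, and with single libraries left out it ranged from 2.55 to 2.89 in CD18wt and 2.41 to 2.81 in CD18Foxp3 on TPM. With unique reads the Eno3 share of Eno1 and Eno3 was 16.6% in unstimulated CD18wt, 13.4% in unstimulated CD18Foxp3, 17.3% in stimulated CD18wt and 16.0% in stimulated CD18Foxp3, because few Eno1 reads are unique.

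Signs turned only in members that did not pass the threshold. In CD18wt, Hk1 was at -0.012 with DESeq2 and -0.067 with upper-quartile scaling. With library size alone, Gpi1 was at 0.069, Rpia at 0.19 and Rpe at 0.098, and with no filter Rpia was at 0.0041. On log2(TPM + 1) and log2(TPM + 0.1), Gpi1 was at 0.28 and 0.28, Rpia at 0.39 and 0.40, Rpe at 0.30 and 0.30 and Taldo1 at 0.070 and 0.070. In CD18Foxp3, Hk1 was at -0.011 with upper-quartile scaling, and on the same TPM scales Gpi1 was at 0.12 and 0.12, Pfkfb4 at 0.13 and 0.17 and Bpgm at 0.024 and 0.025. With single libraries left out, the ranges that crossed 0 in CD18wt were -0.085 to 0.11 for Hk1, -0.088 to 0.47 for Pfkfb4, -0.050 to 0.28 for Aldoc, -0.069 to 0.24 for Bpgm and -0.12 to 0.12 for Rpia. In CD18Foxp3 they were -0.12 to 0.27 for Hk1 and -0.060 to 0.46 for Aldoc, and between genotypes after stimulation, among the 5 widest members, -0.56 to 0.15 for Eno3. Over all 34 members of that comparison, 13 turned sign without CD18Foxp3 stimulated replicate 1. The cause was not tested.

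Libraries of different groups share replicate numbers, but the labels do not say that a number marks an animal. Correlations of same-numbered libraries' deviations were -0.094 to 0.096 in CD18wt and 0.070 to 0.15 in CD18Foxp3 between cultures, and -0.13 to 0.085 between genotypes, so the numbers were not taken as pairs. In CD18Foxp3 every library correlated best with its own number, which is a hint from the data alone. With the replicate block, the counts of members were the same in all comparisons (18 and 3 in CD18wt, 19 and 4 in CD18Foxp3). In CD18wt, Eno3 then passed (1.03) and Pdk3 did not (0.66), and no other call changed. Over all genes, 16 were called between unstimulated genotypes. There were 41 with the block, 86 with DESeq2, 134 with no filter, 0 with all 12 libraries in 1 fit, 1 on log2(TPM + 1), 5 on log2(TPM + 0.1) and 0 to 44 with single libraries left out. After stimulation there were 0 in edgeR, 22 with DESeq2, 61 with no filter and 1 with the block. Of 200 simulated 2-fold changes, 44 were recovered in the interaction and 118 or more in each other comparison, so at this depth and with 3 libraries a group differences in response are the least well resolved.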

Other observations

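Of the summed TPM of the members, Pgam1 and Pgk1 took larger shares after stimulation. Pgam1 went from 3.34% to 8.78% in CD18wt and from 3.40% to 9.17% in CD18Foxp3, and Pgk1 from 8.87% to 12.6% and from 8.55% to 12.9%. Pkm was at 14.1% and 14.3% in CD18wt and at 13.8% and 13.7% in CD18Foxp3. The 7 genes from triose phosphate to pyruvate (Gapdh, Pgk1, Pgam1, Bpgm, Eno1, Eno3 and Pkm) together held 38.6% of the members' summed TPM in unstimulated CD18wt and 47.0% in stimulated CD18wt Treg, and 38.3% and 47.2% in CD18Foxp3. Hk1, Hk2 and Gpi1 together went from 9.22% to 4.75% in CD18wt and from 9.22% to 4.63% in CD18Foxp3, although Hk2 rose more than any other member. The non-oxidative pentose phosphate genes went from 10.1% to 5.23% and from 10.5% to 5.33%. These shares are of mean TPM over 3 libraries and carry no test. They also rest on the reads as counted, with the limits given above for genes that share sequence with others, Gapdh and Eno1 among them.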
